A study of Homo sapiens with 4 samples.

Results

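The 32 genes described here carry glucose into the cell, break it down to pyruvate, and turn pyruvate into lactate or pass it to the mitochondrion. They were taken as a named list by their role in the pathway, with earlier results of these data known. The rule that defines the list uses no measured value. They form 32 of 19663 protein-coding genes, counted by gene name in GENCODE 44 and off the mitochondrial genome. Binding of the transcription factor c-MYC was mapped by chromatin immunoprecipitation with sequencing (ChIP-seq). The cells were MIA PaCa-2, a human pancreatic ductal adenocarcinoma line that is long established. In 4 libraries, 1 per group, cells had received for 8 h the solvent DMSO, AMG510 at 100 nM or trametinib, a MEK inhibitor, at 10 nM. An antibody to c-MYC was used for each treatment, and non-specific immunoglobulin (IgG) in DMSO cells alone. Peak lists hold no expression values, so the identity of the cell line could not be checked against marker genes, and no group has a replicate.

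Glycolysis splits glucose into pyruvate with a small yield of ATP, and lactate dehydrogenase regenerates the NAD+ that the pathway consumes. Many tumours run this route fast even when oxygen is present, and export the lactate. c-MYC pairs with MAX and binds E-boxes, of which the canonical form reads CACGTG, and genes of glucose metabolism are among its textbook targets. The kinases of the PDK family switch pyruvate dehydrogenase off and so hold pyruvate back from the mitochondrion.

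A gene was given a promoter peak where a peak summit lay at most 1 kb from a transcription start site (TSS) of its protein-coding transcripts. The pileup of a peak is the number of sequenced tags stacked at its summit. The fold enrichment is that pileup plus 1, over the background rate of the same library plus 1. The IgG list held 2966 peaks and the c-MYC lists 9552 (DMSO), 10378 (AMG510) and 5431 (trametinib), from 2.27e+07 to 2.48e+07 tags per library. At a background of 4 tags, a summit needed 13 tags to be called in each of the 4 lists. A gene without a peak is therefore below a calling limit and not shown to be unbound.

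c-MYC peaks stood at the promoters of 15 of the 32 genes in DMSO cells, 15 under AMG510 and 11 under trametinib, and an IgG peak stood at 1, PGK1. The DMSO share was 46.9% (95% Wilson interval 30.9 to 63.6%), where 24.2% of all protein-coding genes had a promoter peak. The same share was reached in AMG510, against 15.3% of all genes. In trametinib it was 34.4% (20.4 to 51.7%), against 11.8% of all genes, and in IgG 0.559% of all genes had a peak. These intervals cover counting error only, and genes are not replicates of a condition. Leaving PGK1 out gave 14, 14 and 11 of 31 genes.

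Promoters rich in CpG hold peaks more often than others, and most glycolytic genes have such promoters. By RefSeq promoter sequences on GRCh38, which matched 29 of the 32 genes, 25 had a promoter with a GC content above 50% and a ratio of observed to expected CpG above 0.6. Of those 25, 13 had a promoter peak in DMSO (52%). The share among all 10584 genes with such a promoter was 34.4%, above 33.5%, the lower end of the interval for the 13 of 25. In AMG510 the 13 of 25 stood against 21.8%, in trametinib the 10 of 25 (40%, 23.4 to 59.3%) against 16.9%, and in IgG the 1 of 25 against 0.69%. The listed genes also have more annotated starts, a median of 6 coding TSS positions per gene against 3 over all protein-coding genes. With the canonical TSS alone, the counts were 12 genes in DMSO cells (all genes 22.3%), 14 in AMG510 (13.8%) and 10 in trametinib (10.7%).

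**Figure D1:**
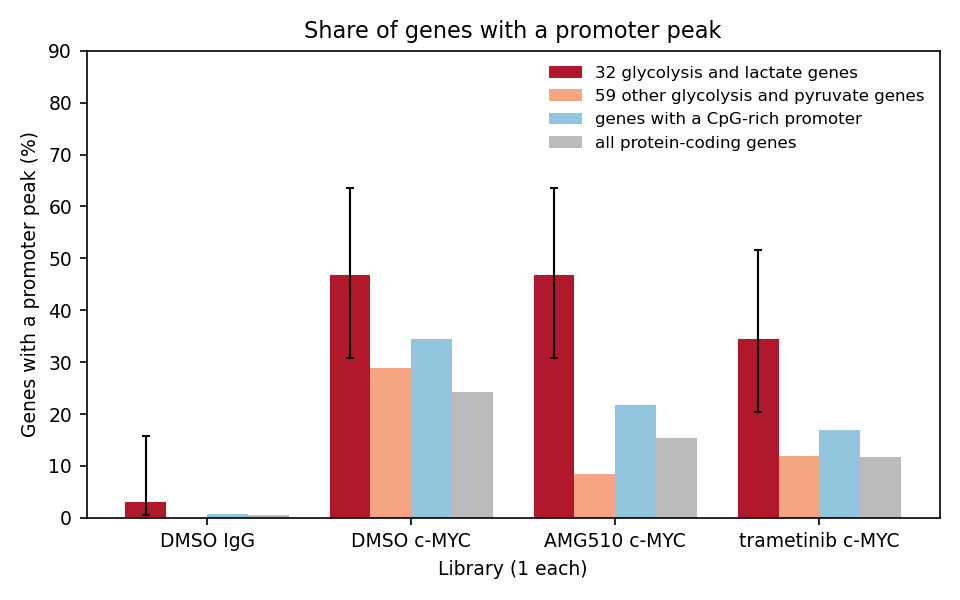
Share of genes with a promoter peak (%, vertical axis) in each of the 4 libraries, for the 32 glycolysis and lactate genes (95% Wilson interval, counting error only), 59 other genes of glycolysis and pyruvate metabolism, genes with a CpG-rich promoter and all protein-coding genes. The red bars stand at 46.9% in DMSO c-MYC and AMG510 c-MYC and at 34.4% in trametinib c-MYC, above the grey bars of all genes at 24.2, 15.3 and 11.8%.

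Strong peaks were fewer. A promoter peak with a fold enrichment above 5 was found at 9 of the 32 genes in DMSO (12.1% of all genes), at 6 in AMG510 (5.75%) and at 2 in trametinib, ENO1 and HK2 (4.87%). Without PGK1 the AMG510 count was 5. The trametinib count is 6.25% of the 32 genes, close to the share over all genes. Taking the strongest promoter peak of each gene, the median fold enrichment of the listed genes was 5.46 (DMSO), 4.42 (AMG510) and 4.58 (trametinib), and over all genes with a promoter peak it was 5.01, 4.71 and 4.76.

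The lists differed by treatment. Of the 15 genes with a DMSO promoter peak, 12 also had one in AMG510 (80%, 54.8 to 93.0%), against 43% of all genes with a DMSO promoter peak, and 9 had one in trametinib (60%, 35.7 to 80.2%), against 35.2%. Both comparisons use the one DMSO library. Without PGK1 the AMG510 count was 11 of 14 genes (78.6%). These shares depended on weak peaks: among peaks with a score above 60 in both lists, 20% of the listed genes with a DMSO promoter peak also had one in AMG510, and 20% in trametinib, where all genes gave 23.0 and 23.2%. Above a fold enrichment of 5 the shares were 44.4% in AMG510 (all genes 29.1%) and 22.2% in trametinib (all genes 27.1%). Of the 17 genes with none in DMSO, 3 had one in AMG510 (ALDOA, HK1 and PDHA1), against 6.47% of all such genes, and 2 in trametinib (HK1 and PKM), against 4.33%. Peak by peak, 12 of the 20 DMSO promoter peaks at the listed genes were overlapped by an AMG510 peak (all DMSO promoter peaks 33.1%), 10 by a trametinib peak (27.7%) and 1 by an IgG peak (0.195%).

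In all, 8 genes had a promoter peak in each c-MYC list: SLC2A1, HK2, TPI1, GAPDH, ENO1, ENO3, LDHA and SLC16A1. This is 25% of the list, and 5.59% of all protein-coding genes had a peak in each. GPI, PFKP, PGK1 and PDK1 had one in DMSO and AMG510, PFKL in DMSO and trametinib, PFKM and PFKFB3 in DMSO alone, HK1 in both drug lists, ALDOA and PDHA1 in AMG510 alone, and PKM in trametinib alone. At least 1 c-MYC list held a promoter peak for 19 of the 32 genes, and for 31.7% of all genes.

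**Figure D2:**
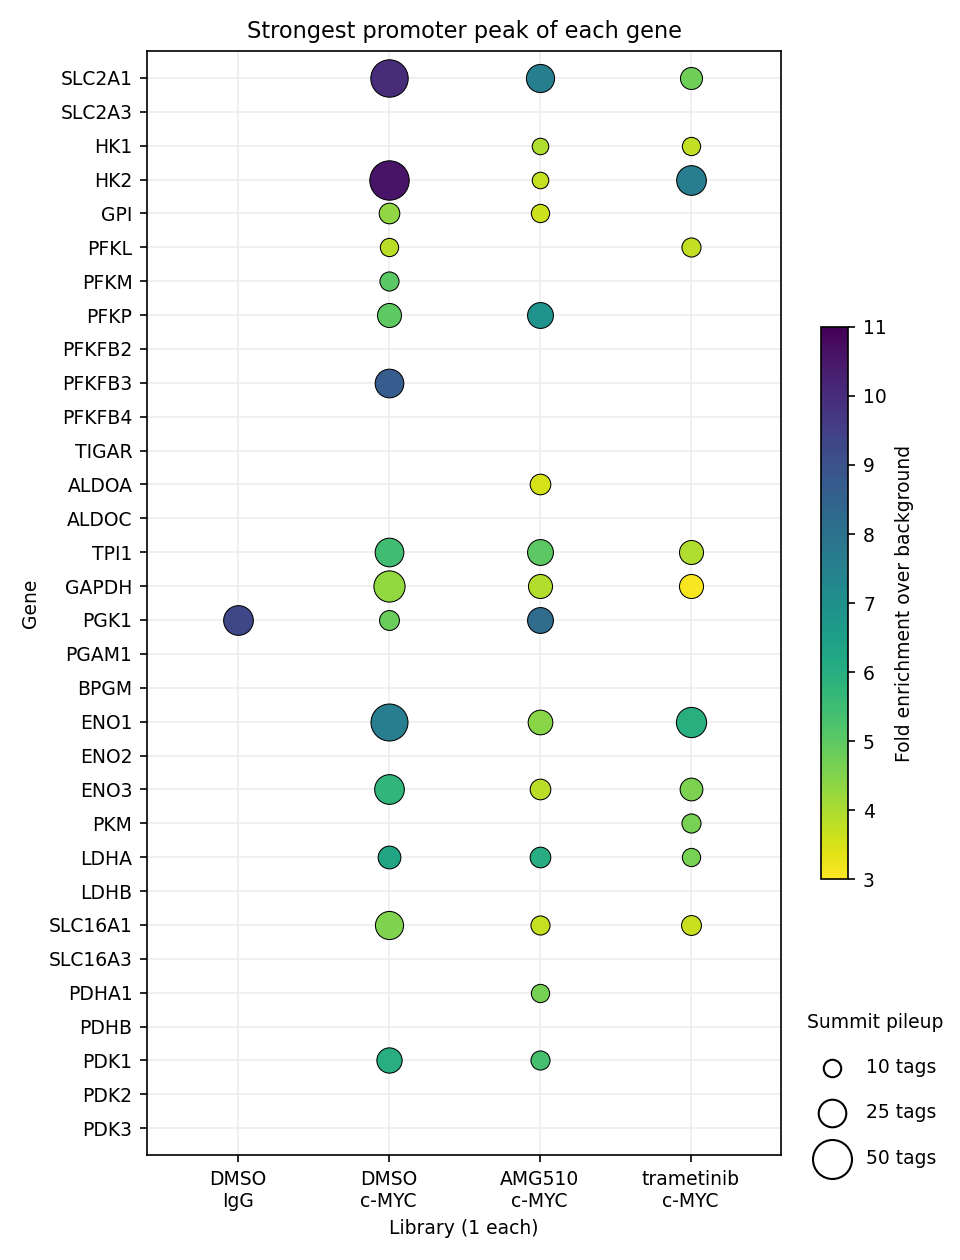
Strongest promoter peak of each of the 32 genes (rows, in pathway order) in each of the 4 libraries (columns). The area of a point is the summit pileup in tags and its colour the fold enrichment, and an empty place means that no promoter peak was called. Points of a gene can come from peaks that do not overlap. SLC2A1 and HK2 carry the largest points in DMSO c-MYC, 46 and 51 tags, and PGK1 has the one point in the IgG column.

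Glucose entry gave the 2 strongest sites of the list in DMSO. SLC2A1 encodes the glucose transporter GLUT1. Its peak lay in intron 1 (DMSO peak chr1:42958228-42958753, GRCh38), with its summit 466 bp downstream of the canonical TSS. The pileup was 46 tags in DMSO cells, 26 under AMG510 and 16 under trametinib, with fold enrichments of 10.0, 7.59 and 4.78. In DMSO and AMG510 the peak ranked above 98.6% and 98.2% of its own list, and in trametinib above 59.8%. No CACGTG lies within 1 kb of the canonical TSS. The stretch spanned by the 3 summits does hold 2 copies of CACGCG, a noncanonical E-box, 1 on each strand. It is printed from the reference, on the strand of the gene, since it is the strongest site whose summits lack the canonical form, with the noncanonical E-box or its reverse complement CGCGTG in capitals.
SLC2A1, chr1:42958280-42958445, minus strand: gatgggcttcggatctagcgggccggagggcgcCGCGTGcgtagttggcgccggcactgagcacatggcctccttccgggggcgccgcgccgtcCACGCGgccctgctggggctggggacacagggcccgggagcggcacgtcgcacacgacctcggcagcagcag
The DMSO summit lay 5 bp from the nearer of them, the AMG510 summit 13 bp and the trametinib summit 46 bp.

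HK2 encodes hexokinase 2, which traps glucose as glucose 6-phosphate and is the inducible form in many tumours. Its peak also lay in intron 1 (DMSO peak chr2:74834816-74835403), 900 bp past the canonical start and 143 bp upstream of a second annotated coding start. DMSO cells gave a pileup of 51 tags, AMG510 9 and trametinib 29, with fold enrichments of 10.6, 3.71 and 7.63. DMSO was the highest and AMG510, at 9 tags, was near the calling limit. The stretch holds 2 canonical E-boxes and 1 noncanonical copy, all in capitals.
HK2, chr2:74834959-74835085, plus strand: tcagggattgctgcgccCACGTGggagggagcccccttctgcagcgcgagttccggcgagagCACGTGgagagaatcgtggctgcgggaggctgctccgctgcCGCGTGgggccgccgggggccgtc
The DMSO summit fell 1 bp from the second CACGTG, the trametinib summit inside the first, and the AMG510 summit inside the noncanonical copy, 39 bp from the second CACGTG. HK1, the widely expressed hexokinase, had no DMSO promoter peak, and peaks of 9 tags in AMG510 and 11 in trametinib lay in its intron 1. SLC2A3, which encodes the transporter GLUT3, had no promoter peak in any list.

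**Figure D3:**
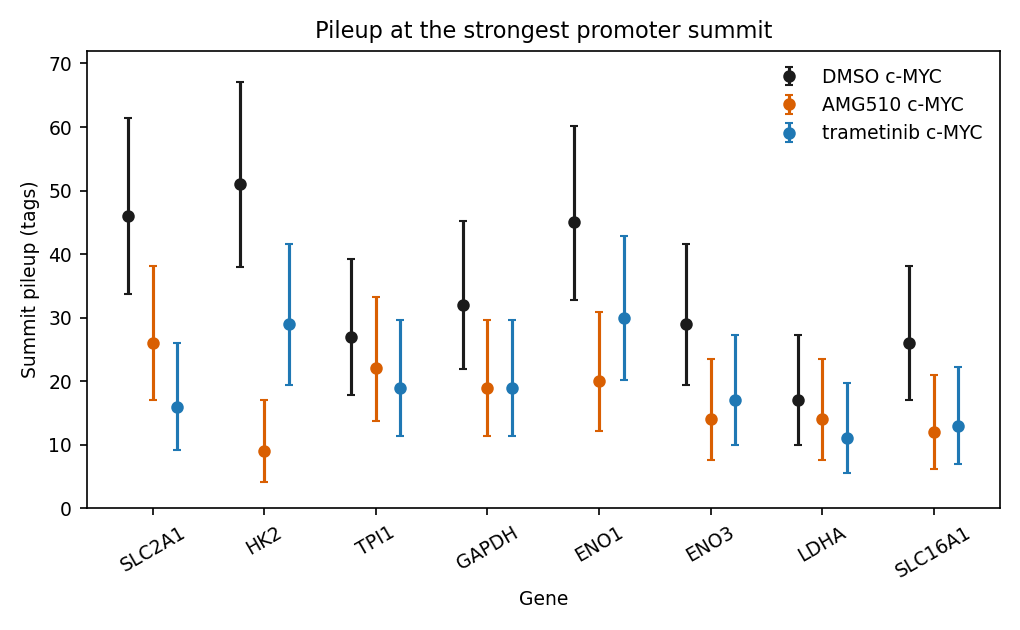
Summit pileup in tags (vertical axis) of the strongest promoter peak at the 8 genes with a promoter peak in each c-MYC list. The strongest peak was taken in each library, so points of a gene can be different sites. The drug peak shown does not overlap the DMSO one at GAPDH (AMG510), ENO3 (trametinib) and SLC16A1 (both drugs). At TPI1 the peaks of both drugs do not overlap each other. Points are single libraries and bars are exact 95% Poisson intervals of the pileup, which cover counting error only. At HK2 the AMG510 point stands at 9 tags, below 51 in DMSO and 29 in trametinib, while at SLC2A1 the trametinib point is the lowest, at 16 tags.

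The hexose phosphate steps had a promoter peak in DMSO at each of their 4 genes, at 2 of them in AMG510 and at 1 in trametinib, where 24.2, 15.3 and 11.8% of all genes had one. With 4 genes these counts are a description. PFKP encodes the platelet form of phosphofructokinase, the enzyme of the committed step. Its intron 1 held 19 tags in DMSO and 22 in AMG510, with fold enrichments of 4.99 and 6.89, and the nearest trametinib summit was 214637 bp from a coding TSS. The liver form PFKL had 11 tags in DMSO and 12 in trametinib, and the muscle form PFKM 12 in DMSO alone. At a background of 2 tags, a summit needed 9 to be called in each c-MYC list. GPI encodes glucose-6-phosphate isomerase. Its 2 promoter peaks did not overlap: the DMSO peak of 14 tags lay 6107 bp upstream of the canonical TSS, at an alternative start, and the AMG510 peak of 11 tags lay 118 bp downstream of the canonical TSS, in the coding part of exon 1.

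Among the 4 genes that set the level of fructose 2,6-bisphosphate, the activator of phosphofructokinase, PFKFB3 alone had promoter peaks, both in DMSO. They lay at alternative starts, 57697 and 39039 bp upstream of the canonical TSS. The nearer of the 2 (chr10:6163718-6164183) had 27 tags and a fold enrichment of 8.67, above 97.1% of the DMSO list, and the other had 14 tags. In the drug lists the nearest summit to a coding TSS of PFKFB3 was 55527 bp away in AMG510 and 55513 bp in trametinib. The stronger DMSO summit lay 2 bp from a noncanonical E-box and 81 bp from the canonical one shown here in capitals, in a run of 30 bases.
PFKFB3, chr10:6163795-6163824, plus strand: gcacgccgcgttCACGTGctgtcgcgcgcc

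Of the 4 genes of the triose steps, TPI1 and GAPDH had promoter peaks in each c-MYC list. TPI1, the isomerase that links both trioses, had 27 tags in DMSO, 22 in AMG510 and 19 in trametinib. Its DMSO and trametinib summits lay in intron 1, 476 and 520 bp past the canonical start, and the AMG510 summit lay at 14 bp. At GAPDH, the dehydrogenase that reduces NAD+, DMSO had an upstream peak of 32 tags and an intron 2 peak of 26 tags. An AMG510 peak of 19 tags overlapped the one in intron 2, and a trametinib peak of 19 tags overlapped the upstream one. The background at GAPDH was high, from 4.11 to 6.85 tags per site, and the fold enrichments were only 3.09 to 4.31. The AMG510 summit lay 49 bp from an E-box in intron 2.
GAPDH, chr12:6535171-6535200, plus strand: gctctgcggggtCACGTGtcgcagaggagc
ALDOA, the muscle aldolase that many tissues use, had a peak of 14 tags in AMG510 alone, 475 bp upstream, with a fold enrichment of 3.50 that ranked above 6.33% of its list. ALDOC had none.

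In lower glycolysis, ENO1 was the strongest site with a peak in each c-MYC list and no IgG peak. ENO1 encodes enolase 1, which makes phosphoenolpyruvate. Each c-MYC list held 2 peaks at its promoter, in intron 1 (DMSO chr1:8878016-8878676) and upstream of the canonical TSS. The intron 1 peak reached 45 tags (DMSO), 20 (AMG510) and 30 (trametinib), and the upstream peak 25, 20 and 17. DMSO was highest at both. The 3 intron 1 summits spanned a stretch with neither E-box form, printed to set it beside the upstream site. The DMSO intron 1 peak does hold CACGTG away from its summit, 231, 311 and 357 bp past the canonical TSS. Its summit lay 147 bp from the nearest CACGTG and 92 bp from a CACGCG.
ENO1, intron 1, chr1:8878094-8878200, minus strand: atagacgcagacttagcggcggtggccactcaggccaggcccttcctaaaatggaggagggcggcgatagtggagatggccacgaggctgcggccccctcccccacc
ENO1, upstream, chr1:8879268-8879297, minus strand: gcgcaggcggcgCACGTGgccccggacacg
The upstream DMSO summit fell 1 bp from this E-box and the trametinib summit 38 bp, whereas the upstream AMG510 summit, 312 bp from the TSS, had none within 100 bp. The weaker of both DMSO sites thus had the canonical E-box at its summit, and the stronger had canonical E-boxes farther from its summit.

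ENO3, the muscle enolase, was counted through alternative starts. Its DMSO peaks of 29 and 17 tags lay 1224 and 3126 bp upstream of the canonical TSS, and each of its promoter peaks also lay within 1 kb of a start of PFN1, which encodes the actin-binding protein profilin 1. The gene to which these peaks belong cannot be told apart from the position. The AMG510 peak, 14 tags, overlapped the first and the trametinib peak, 17 tags, the second. The stronger DMSO summit fell inside an E-box.
ENO3, chr17:4949879-4949908, plus strand: gccgcacccgggCACGTGgcggcgctcccc
PKM, the pyruvate kinase of most tissues, had a peak of 12 tags in trametinib alone, 233 bp upstream. PGAM1, BPGM and ENO2 had no promoter peak.

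PGK1 encodes phosphoglycerate kinase 1, the first ATP-making step. Its promoter had 29 tags in IgG, 13 in DMSO c-MYC and 22 in AMG510 c-MYC, with fold enrichments of 9.29, 4.84 and 8.20, and no peak in trametinib. The peaks began within a few bases of each other (IgG peak chrX:78103835-78104365), upstream of the TSS. The IgG peak ranked above 98.1% of its list and was higher than both c-MYC peaks. The part of non-specific signal in the c-MYC peaks at PGK1 was not tested, and the counts above and the ratios below include PGK1 unless it is said to be left out.

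Of the lactate genes, LDHA and SLC16A1 had promoter peaks in each c-MYC list, and LDHB and SLC16A3 had none. LDHA encodes the subunit of lactate dehydrogenase that favours lactate. It had 17 tags in DMSO (chr11:18394266-18394939), 14 in AMG510 and 11 in trametinib, with fold enrichments of 6.30, 6.02 and 4.65 on a background below 2 tags. The summits moved along the promoter, 187 bp upstream of the TSS in DMSO, 74 bp upstream in trametinib and 148 bp downstream in AMG510. The 2 E-boxes upstream of LDHA are shown because the DMSO summit fell 2 bp from the first and the trametinib summit 8 bp from the second.
LDHA, distal, chr11:18394366-18394395, plus strand: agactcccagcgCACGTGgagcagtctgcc
LDHA, proximal, chr11:18394464-18394493, plus strand: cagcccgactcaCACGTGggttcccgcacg
SLC16A1 encodes the lactate transporter MCT1. DMSO cells had a peak of 26 tags upstream and one of 23 tags in intron 1, and the peaks of AMG510 (12 tags) and trametinib (13 tags) overlapped the latter. SLC16A3, which encodes the export carrier MCT4, had an AMG510 summit of 12 tags in its first intron at 1188 bp from the nearest coding TSS, just outside the window, and LDHB a DMSO summit at 2174 bp.

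At the entry to the mitochondrion, PDK1 alone of the 3 kinases had promoter peaks. It had 21 tags in DMSO and 12 in AMG510, both in intron 1, with fold enrichments of 5.99 and 5.35, and the nearest trametinib summit was 69971 bp away. The DMSO summit lay 25 bp from an E-box, the AMG510 summit 178 bp.
PDK1, chr2:172556605-172556634, plus strand: cgcctcccggcgCACGTGtgcaggtgcgcg
PDHA1, the catalytic subunit that these kinases phosphorylate, had a peak of 11 tags in AMG510 alone. PDHB, PDK2 and PDK3 had none.

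In all, 13 genes had no c-MYC promoter peak: SLC2A3, PFKFB2, PFKFB4, TIGAR, ALDOC, PGAM1, BPGM, ENO2, LDHB, SLC16A3, PDHB, PDK2 and PDK3. The nearest c-MYC summit to a coding TSS of these genes lay from 1188 bp (SLC16A3) to 109905 bp (PDK3) away, and at PFKFB2 2509 bp, in AMG510. Paralogues thus differed in these lists: ENO1 against ENO2, LDHA against LDHB, SLC2A1 against SLC2A3, SLC16A1 against SLC16A3 and PDK1 against PDK2 and PDK3. This is a description of which peaks passed the limit.

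Canonical E-boxes lay within 100 bp of the summit at 6 of the 20 promoter peaks of these genes in DMSO (30%, 14.5 to 51.9%), 3 of 16 in AMG510 (18.8%) and 3 of 12 in trametinib (25%). Over all promoter peaks the shares were 16.9, 14.4 and 17.3%, inside the intervals of the listed genes. In windows of the same size 1 kb away from the summits, the shares at the listed genes were 12.5, 6.25 and 20.8%. Over all promoter peaks these were 3.19, 2.83 and 2.99%. In trametinib the share at the listed genes 1 kb away was near that at the summit. These windows are not free of peaks, however. At ENO1 a window 1 kb from the upstream trametinib summit falls inside the intron 1 peak and holds a CACGTG. The shares 1 kb away are therefore not a background without c-MYC peaks. With CACGCG counted on either strand as well, the DMSO share was 11 of 20 (55%), against 37.0% of all DMSO promoter peaks. Within 1 kb of the canonical TSS, 18 of the 32 genes (56.3%) hold a CACGTG, against 29.2% of all protein-coding genes. In the RefSeq promoters of 300 bases, 8 of 58 promoters of the listed genes hold one (13.8%), against 8.35% of all. A match of letters is a description and not a bound site.

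**Figure D4:**
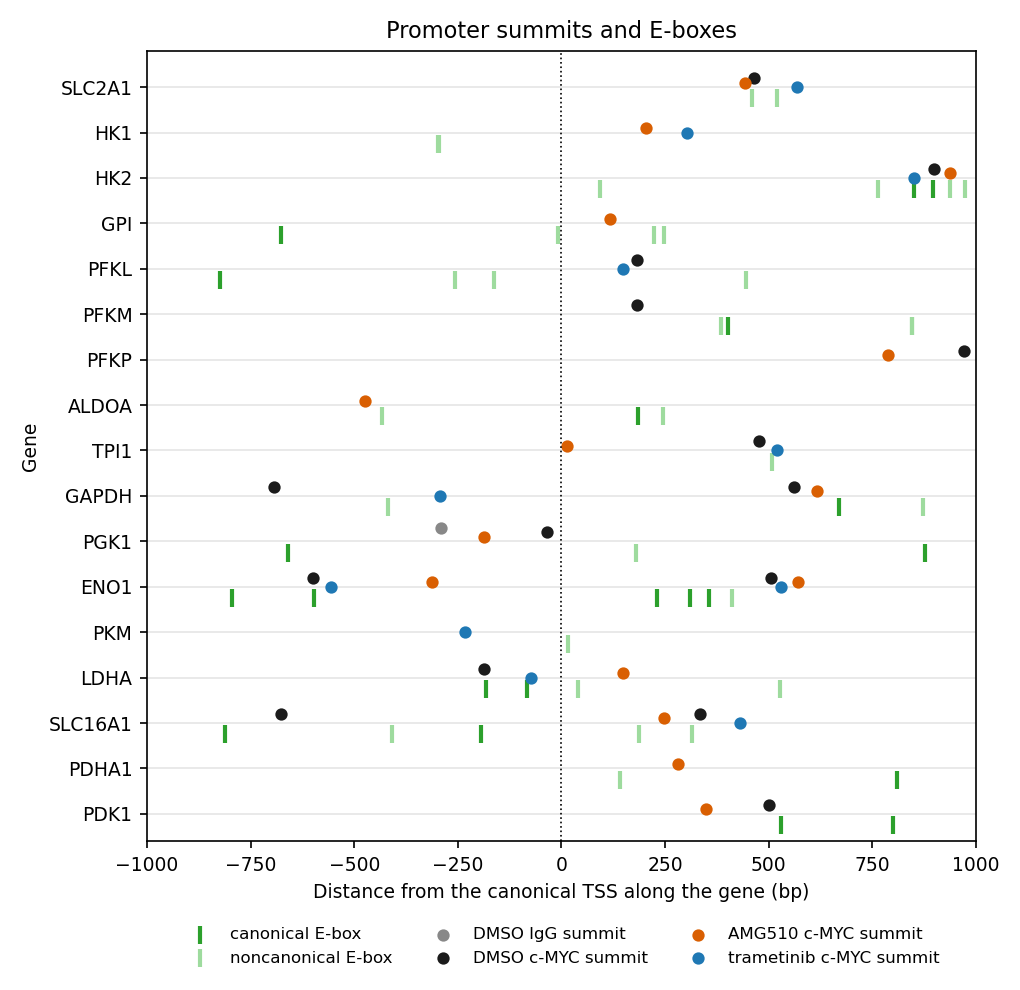
Promoter summits (points, coloured by library) and E-boxes (ticks) within 1 kb of the canonical TSS, by distance along the gene in bp (horizontal axis, positive is downstream), for the 17 genes with a summit in this window. The canonical E-box is CACGTG and the noncanonical one CACGCG on either strand. In DMSO c-MYC 10 of 15 summits fell downstream of the TSS, and the summits of HK2 and LDHA in DMSO and trametinib sit at canonical E-boxes.

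Summits of the listed genes within 1 kb of the canonical TSS lay mostly downstream of it, as over all genes. The shares were 10 of 15 in DMSO (66.7%, all genes 67.6%), 12 of 15 in AMG510 (80%, all genes 69.1%) and 7 of 11 in trametinib (63.6%, all genes 67.1%).

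To compare the amount of signal, depth-scaled pileups (tags at the summit over all tags of the library) were set against DMSO where a drug peak overlapped a DMSO promoter peak. At SLC16A1 under both drugs, GAPDH under AMG510 and ENO3 under trametinib, a stronger DMSO peak without an overlap was left out. Under AMG510 the log2 ratio was negative at 9 of 11 genes (81.8%), and at 89% of the 1711 genes with such peaks. The median was −0.83 against −0.51 over those genes, and −0.84 over 10 genes without PGK1. The exact 95% interval lay below 0 at 4 of the 11, while this held for 18.6% of all genes: HK2 at −2.52 (−3.73 to −1.49), ENO1 at −1.19 (−2.03 to −0.40), ENO3 at −1.07 (−2.11 to −0.10) and SLC2A1 at −0.84 (−1.60 to −0.12). HK2 had the most negative of all 1711 ratios. Under trametinib the ratio was negative at 8 of 9 genes (88.9%), and at 85.9% of all 1444 genes with such peaks, with medians of −0.68 and −0.49. Its interval lay below 0 at SLC2A1, −1.57 (−2.49 to −0.72), and HK2, −0.86 (−1.57 to −0.18), 2 of the 9 genes, while this held for 19% of all genes. No interval lay above 0 under either drug, at the listed genes or over all genes with such peaks.

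The ratios describe single libraries, and the intervals cover counting error only. In each library the tags outnumbered the uniquely mapped reads that the study reported, so both mates of a fragment were counted as tags, at least in part. The intervals of pileups and ratios are therefore too narrow. This matters most where an interval barely excludes 0, as under AMG510 at ENO3 (upper end −0.10) and SLC2A1 (−0.12). The fragment length set in calling was 177 bp in DMSO, 157 bp in AMG510 and 163 bp in trametinib, and the log2 ratios of these lengths to that of DMSO were −0.17 and −0.12. Each pileup was read at the summit of its own library, so a ratio need not compare the same position. The summits of a pair lay a median of 86 bp apart under AMG510 and 97 bp under trametinib (all genes 78 and 64 bp). The largest shifts were 462 bp (TPI1, AMG510) and 441 bp (ENO3, trametinib). The local background at these summits was also lower, with a median log2 ratio of −0.53 under AMG510 and −0.28 under trametinib. By fold enrichment in place of pileup the medians were −0.16 and −0.44, and over all genes −0.22 and −0.24. The part of background and fragment length in the ratios was not tested.

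**Figure D5:**
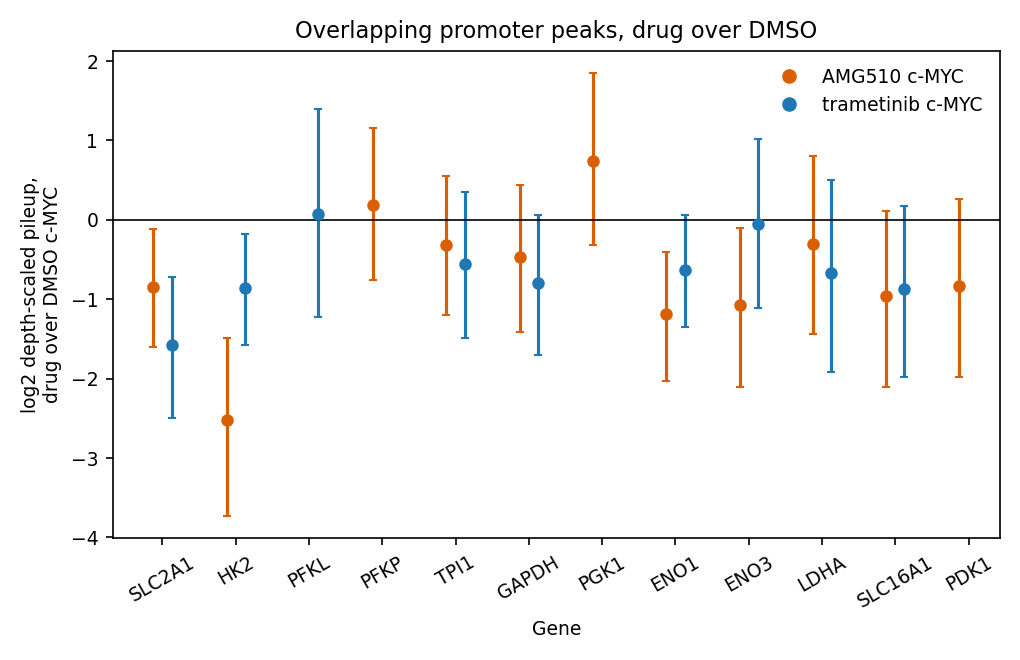
Log2 ratio of the depth-scaled summit pileup, drug over DMSO c-MYC (vertical axis), at the 12 genes whose DMSO promoter peak was overlapped by a drug peak. Points are single pairs of libraries, bars are exact 95% intervals that cover counting error only, and a missing point means no overlapping peak. HK2 under AMG510 lies lowest, at −2.52, and SLC2A1 lies lowest under trametinib, at −1.57.

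The drug libraries, made at different doses, were also set side by side, 1 library each, so that a difference between drugs and one between libraries cannot be told apart. Where peaks of both drug lists overlapped, the log2 ratio of trametinib over AMG510 at HK2 was 1.66 (0.54 to 2.92), from 29 and 9 tags. At SLC2A1 it was −0.73 (−1.72 to 0.23), from 16 and 26 tags, at ENO1 0.56 (−0.31 to 1.45), at LDHA −0.38 (−1.66 to 0.87), at SLC16A1 0.09 (−1.16 to 1.35) and at HK1 0.26 (−1.15 to 1.71). HK2 was the one of these 6 genes whose interval left out 0, while 1.78% of 1011 genes with such peaks did so.

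A further list of 59 genes of glycolysis, the pentose phosphate route and pyruvate handling had promoter peaks at 17 genes in the DMSO c-MYC list, 5 under AMG510, 7 under trametinib and 0 with IgG. These are 28.8, 8.47, 11.9 and 0% of that list, and over all genes the shares were 24.2, 15.3, 11.8 and 0.559%. SLC2A4, the insulin-responsive glucose transporter, and PGM2, a phosphoglucomutase, had one in each c-MYC list. MPC1 and MPC2, which form the mitochondrial pyruvate carrier, and BSG, the chaperone of the lactate carriers, had one in DMSO and trametinib. TXNIP, an inhibitor of glucose uptake, and MLXIP, a glucose-sensing factor, had one in DMSO alone. Of the 17 genes with a DMSO peak, 4 had one in AMG510 (23.5%, all genes 43%) and 7 in trametinib (41.2%, all genes 35.2%).

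Away from promoters, over 1 kb from each coding TSS but inside the genes, 6 c-MYC peaks lay in 5 of the 32 genes in DMSO, 4 in 4 genes in AMG510 and 2 in 2 genes in trametinib, and 1 IgG peak lay in 1 gene. Over all protein-coding genes, the shares with such a peak were 9.94% (DMSO), 13.3% (AMG510), 6.59% (trametinib) and 5.42% (IgG), and the listed genes are longer, with a median of 37404 bp against 27326 bp. The strongest lay in intron 9 of GPI, with 24 tags in DMSO and 24 in AMG510, and IgG had 27 tags there. The others had 11 to 15 tags, at SLC2A3, HK1, PFKP, LDHB, PFKFB2 and SLC16A3.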

How the data were processed

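The deposited files used here are 1 peak list per library on GRCh38. Per the submitters' processing notes and the study's methods, the authors trimmed reads with Trimmomatic 0.39, aligned with BWA 0.7.17, filtered with SAMtools 1.9, removed duplicates with Picard, converted with bedtools 2.27.1, called peaks in each library with MACS2 2.2.7.1 at default settings (q = 0.05) and removed ENCODE exclusion regions. The deposited columns give a score (the −log10 q-value times 10), the fold enrichment as a ratio, and the −log10 p-value and −log10 q-value. These are relative to the library's own background.

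Pileup and background were solved from the deposited fold enrichment and −log10 p-value. Pileups came out whole for 100% of peaks within 0.001 in −log10 p, and the solution was tested on simulated data. Depth follows from the genome-wide background, the fragment length and a genome size of 2.7e+09 bp.

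Promoters used protein-coding transcripts of GENCODE 44. Overlap needed 1 bp. Of several peaks at a gene, the one of highest fold enrichment was used, and for ratios it was chosen among the DMSO peaks that a drug peak overlapped. Shares carry Wilson 95% intervals, pileups exact Poisson and ratios exact conditional binomial intervals. With 1 library per group no test between groups was run. All 32 genes are accounted for, those with a promoter peak in any c-MYC list with values, the rest by name. E-boxes within 100 bp of a summit are printed with 12 bases on each side, longer stretches only between summits clear of untranslated exons, with 20 bp on each side. The genes and lists were chosen with earlier results of these data known. Sequence came from GRCh38 and, for promoters of 300 bases, RefSeq. Python 3.11.15, numpy 2.4.6, pandas 2.3.3, scipy 1.17.1, pysam 0.24.0 and matplotlib 3.10.9 were used.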

Additional observations from a re-analysis of the deposited data

Results flagged for a closer look

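The IgG library, which enters none of the comparisons between treatments, held a peak at the PGK1 promoter with a fold enrichment of 9.29 and 29 tags, above the 13 and 22 tags of the DMSO and AMG510 c-MYC peaks. It was the one IgG promoter peak among the 32 genes.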

How the results depend on the processing

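No replicate could be left out, since each group has 1 library. No paired analysis was possible because no result comes from a test and each group has 1 sample. Over 16 results and 88 alternatives, 71 values stayed within 1.5 times the reported count or within its interval, none changed sign, and 17 moved. Keeping peaks with a fold enrichment above 5 left 9 genes with a promoter peak in DMSO, 6 in AMG510 and 2 in trametinib, 4 shared by DMSO and AMG510 (44.4% of the DMSO genes, all genes 29.1%), and 2 by DMSO and trametinib (22.2%, all genes 27.1%). A score above 60 left 4 in AMG510, 2 in trametinib, and 2 shared with DMSO by each drug (20%, all genes 23.0% for AMG510 and 23.2% for trametinib). The listed genes' shared share, above that of all genes at the authors' limit, was thus below it for both drugs at this score and for trametinib above a fold enrichment of 5. Counting starts of every transcript gave 2 IgG genes, and leaving PGK1 out, an alternative chosen after seeing the data, gave 0 and moved no other result by over 1.5 times. The DMSO E-box share became 60% within 200 bp, 55% with CACGCG counted and 55.6% above a fold enrichment of 5. In AMG510 it became 6.25% within 50 bp and 0% above a fold enrichment of 5. The AMG510 median ratio became −0.16 by fold enrichment. The cause of these moves was not tested beyond the fewer or more peaks that each setting admits. Depth limits what can be read: a summit with a background of 6 tags needed 16 or 17 tags to be called, and pileups of 9 to 14 tags have wide intervals.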

Other observations

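The intron 9 peak of GPI was found in IgG (27 tags, fold enrichment 9.74), DMSO c-MYC (24 tags, 6.29) and AMG510 c-MYC (24 tags, 7.97), with summits within 12 bp of each other, and in the trametinib list no peak was called there.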
